A study of Mus musculus with 4 samples.

Results

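Cholesterol synthesis genes and a feedback gene of their regulator SREBP were examined in mouse embryonic stem cells with and without the chromatin remodeler Chd1. The genes were chosen by symbol: Hmgcs1, Idi1, Fdps, Fdft1, Sqle, Lss, Cyp51 and Insig1. Of these 8, the 7 other than Hmgcs1 were named once in the tables of both sets and were tested among 10261 genes. All 4 libraries came from Rosa26CreER;Chd1fl/- cells, which carry 1 conditional and 1 null Chd1 allele and a Cre recombinase that tamoxifen activates. Control cells received ethanol and keep the conditional allele; Chd1-null cells, labelled Chd1-/-, received 1 µM tamoxifen. Treatment lasted 48 to 72 h and was followed by 3 to 5 passages in medium with serum and LIF, and RNA was taken from equal numbers of viable cells. There was 1 control and 1 Chd1-null library in set 1 and the same in set 2 (n = 2 per group). The protocol mentions 2 independently derived lines but does not tie a set to a line, so p-values cover variation between these sets only. That variation was pooled over genes of comparable expression. How closely the sets matched for a single gene therefore did not set its p-value in the main fit.

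Cholesterol is built from acetyl-CoA through mevalonate, isoprenoid diphosphates, squalene and lanosterol. Genes of the route are activated by SREBP transcription factors, which are released from the endoplasmic reticulum when sterols are low. Insig proteins hold the SREBP escort Scap in the endoplasmic reticulum when sterols are high, and Insig1 is itself an SREBP target. Dividing stem cells need the route for membranes, and its isoprenoid branch serves protein prenylation, ubiquinone and dolichol.

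Values were taken as FPKM, an inferred unit of fragments scaled to transcript length and depth, so levels were compared between genes. How the added ERCC spike-ins entered that scaling is not given in the sources used here. Sums over all loci ranged from 466994 to 719549 FPKM per library, and read depth is unknown. Chd1 itself measured 27.6 FPKM (control) and 5.71 (Chd1-null) in set 1 and 17.9 and 8.52 in set 2, which left 20.7% and 47.7% of control. The labels do not give the deleted exons, so these shares do not measure functional transcript. All 8 embryonic stem cell markers were named in both tables, with summed levels of 2662 and 3365 FPKM in the controls and 1973 and 1878 in the Chd1-null libraries. Dppa5a alone averaged 1412 FPKM, the most of the 8, so these sums lean on it. Of the markers of other cells, neural ones were the highest. Summed levels were 1.44 to 7.57 FPKM for 3 of 8 endoderm markers and 5.31 to 13.1 for 6 of 8 fibroblast markers. They were 1.03 to 2.76 FPKM for 2 of 5 mesoderm markers and 1.68 to 8.18 for 2 of 5 trophectoderm markers. For 5 of 6 neural markers, they were 28.3 to 49.4, and Tubb3 alone averaged 20.4 FPKM, above Cyp51. The other markers were not named in both tables, and the part of other cells in the results below was not tested.

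In both sets all 7 genes measured lower in the Chd1-null library than in its control, which held for 72.4% of all tested genes. Idi1 and Insig1 fell by the test on the deposited scale (2 of 7), while 9.8% of all tested genes were called lower and 0.0682% higher. At an unadjusted p under 0.05 it was 5 of 7, against 29.2% of tested genes. Relative to each set's median gene, 0 of the 7 passed, and 0 passed at an unadjusted p under 0.05 (6.29% of tested genes did). The medians over the 7 genes left 82.6% of control in set 1 and 66.8% in set 2, against 72.7% and 79.6% over all tested genes. By median, the 7 genes therefore lay above all tested genes in set 1 and below them in set 2. With bulk RNA, fewer cells of a type and less RNA per cell cannot be told apart.

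Levels spanned a wide range and kept the same ends in every library. Fdps was the highest of the 7 in all 4 libraries, with a mean of 262 FPKM at percentile 97.6 of tested genes. Cyp51 was the lowest in all 4, with a mean of 18.7 FPKM at percentile 68.7. Between them came Insig1 (mean 46.4 FPKM), Idi1 (40.5), Fdft1 (35.3), Sqle (32.1) and Lss (23.1). Neighbours in this order from Insig1 to Sqle overlapped between libraries of the same group. Fdps above Insig1, Sqle above Lss and Lss above Cyp51 did not overlap in either group.

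**Figure D1:**
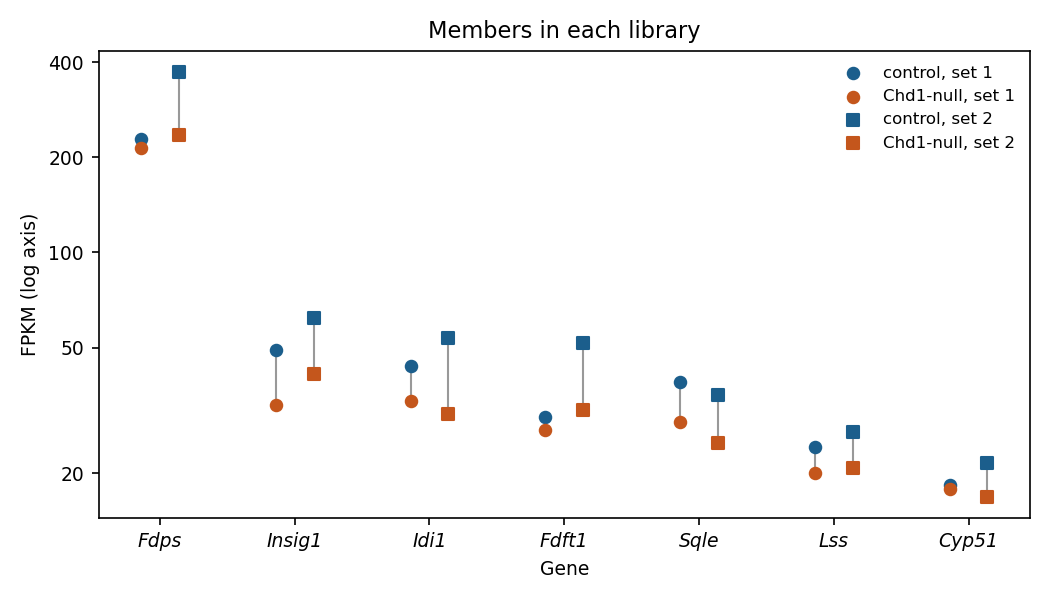
FPKM of 7 genes (log axis), circles for set 1 and squares for set 2, with a line joining the pair of each set. Each Chd1-null point lies below its control, from 96.9% of control for Cyp51 in set 1 down to 57.4% for Idi1 in set 2.

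The early steps make isoprenoid diphosphates. Hmgcs1 encodes the synthase that makes HMG-CoA, an early intermediate of the route. A locus named Hmgcs1 was present in set 1 alone, at 0.560 FPKM in the control and 1.15 in the Chd1-null library. These values are far below those of the other 7 genes. Whether this locus holds the gene's main transcript could not be worked out from the tables, so they are not taken as its expression, and the gene entered no test. Idi1 encodes the isomerase of isopentenyl diphosphate. In set 1 the control held 43.8 FPKM and the Chd1-null library 33.9, and in set 2 they held 53.6 and 30.8. Both controls lay above both Chd1-null libraries. The log2 fold change was -0.58 (limma SE 0.19, 95% interval -0.95 to -0.22, adjusted p = 0.0286). Intervals here and below are not adjusted for the number of genes tested. Fdps joins these units into farnesyl diphosphate, the branch point to sterols and prenyl groups. The values, control first, were 229 and 214 FPKM in set 1 and 372 and 235 in set 2. Here the groups overlapped, because the control of set 1 lay below the Chd1-null library of set 2. The log2 fold change was -0.38 (SE 0.17, 95% interval -0.71 to -0.05, adjusted p = 0.123).

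Fdft1, squalene synthase, makes the first committed sterol intermediate. Its levels were 30.2 (control) and 27.4 FPKM (Chd1-null) in set 1 and 51.8 and 31.7 in set 2. The groups overlapped, and the sets had log2 ratios of -0.14 and -0.71 (mean -0.42, SE 0.19, adjusted p = 0.129). Sqle, squalene epoxidase, is an oxygen-dependent control point of the route. Control and Chd1-null libraries held 39.0 and 29.1 FPKM in set 1 and 35.4 and 25.1 in set 2. The groups did not overlap, and the sets gave similar log2 ratios of -0.42 and -0.50 (mean -0.46, SE 0.20, adjusted p = 0.103). Lss closes squalene epoxide into lanosterol. The 2 controls measured 24.3 and 27.1 FPKM and the 2 Chd1-null libraries 20.1 and 20.8. Its groups did not overlap either (mean log2 ratio -0.33, SE 0.21, adjusted p = 0.268).

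Cyp51 removes the 14-alpha methyl group of lanosterol. Set 1 gave 18.4 FPKM for the control and 17.8 for the Chd1-null library, and set 2 gave 21.6 and 16.9. This was the smallest change of the 7 in both sets (log2 ratios -0.04 and -0.35). The mean was -0.20 with a 95% interval of -0.63 to 0.23 (limma adjusted p = 0.519). Insig1, the sterol-sensing retention factor, measured 49.3 FPKM (control) against 33.0 (Chd1-null) in set 1 and 62.0 against 41.4 in set 2. Its groups did not overlap, and Chd1-null cells held 66.9% and 66.7% of control. The log2 fold change was -0.58 (SE 0.18, 95% interval -0.94 to -0.22, adjusted p = 0.0261). In all, 5 of 7 genes had both controls above both Chd1-null libraries, against 52.6% of tested genes. In the deciles of mean FPKM that hold the 7 genes (7 to 10), that share was 56.5% to 61.4%.

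Both calls depended on the model and the scaling. With one common prior variance the limma adjusted p was 0.299 for Idi1 and 0.297 for Insig1, and without the set as a block it was 0.461 for each. Scaled to library totals, which takes out a common shift, the log2 changes were -0.18 for Insig1 and -0.19 for Idi1 (adjusted p = 0.998 each). That scaling turned Fdps, Lss and Cyp51 to higher values (0.0177, 0.0685 and 0.199). With only genes of at least 5 FPKM tested, the adjusted p was 0.0784 for Idi1 and 0.071 for Insig1. With each set's level trend removed, the log2 changes were larger, -0.65 for each, with adjusted p of 0.0521 and 0.0506. With one common prior variance, without the block and with at least 5 FPKM, the log2 changes stayed at -0.58.

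Against the shift shared by most genes, the 7 genes lay close to the median as means of both sets, but less so in each set. Relative log2 changes ran from -0.19 for Idi1 and Insig1 to 0.20 for Cyp51, and all limma adjusted p were 0.998. Of all tested genes, 0.214% were called lower and 0.146% higher in this comparison. The 95% intervals still allow relative log2 changes from -0.63 to 0.25 for Idi1 and from -0.27 to 0.66 for Cyp51. Relative values by set were 0.09 and -0.47 for Idi1, 0.36 and -0.33 for Fdps, and 0.32 and -0.38 for Fdft1. They were 0.42 and -0.02 for Cyp51 and -0.12 and -0.25 for Insig1. They were 0.04 and -0.17 for Sqle and 0.18 and -0.05 for Lss. On the deposited scale, the quartiles of all tested genes were -0.82 and -0.18 in set 1 and -0.56 and -0.10 in set 2. Between them lay 4 of the 7 genes in set 1 and 3 in set 2. All but Insig1 lay above the median of set 1, and all 7 lay below that of set 2. This combination was found in 6 of 7 genes and in 25.4% of all tested genes. With 1 pair per set, a difference between the sets could not be tested.

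**Figure D2:**
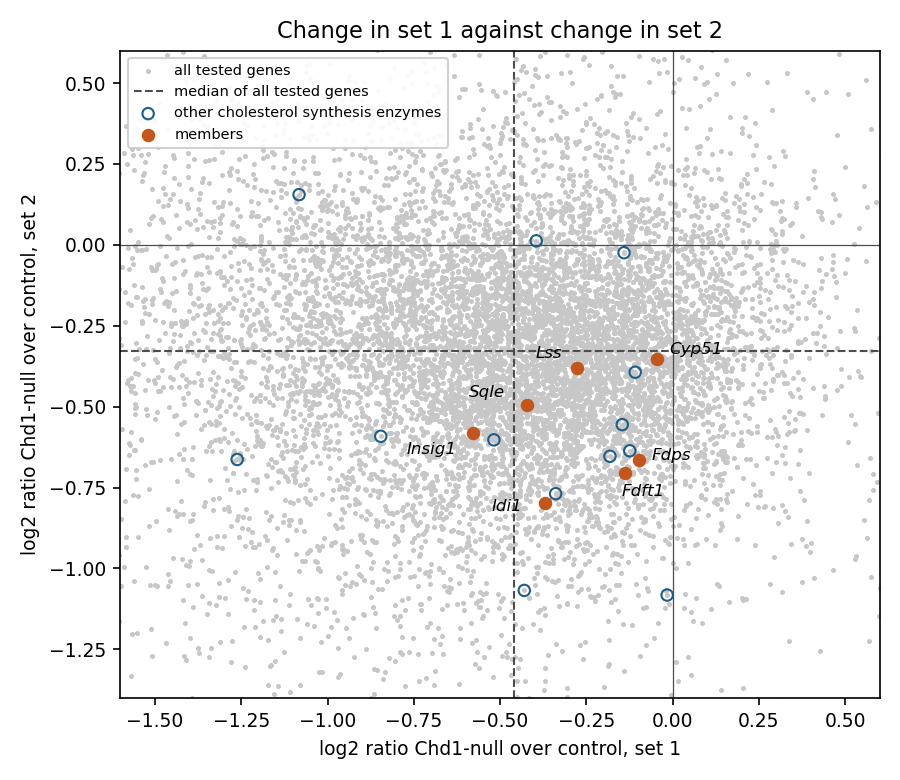
Log2 ratio of Chd1-null over control in set 1 (horizontal) against set 2 (vertical) for all tested genes (grey; genes outside the axes are not drawn), the 7 genes (orange, called members in the key) and 13 other cholesterol synthesis enzymes (open circles). Dashed lines are the medians of all tested genes, -0.46 and -0.33; 6 of the 7 genes lie to the right of the first, and all 7 below the second.

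The change moved with expression level in these tables, and the 7 genes are highly expressed. In set 1 the median log2 ratio went from -0.94 in the lowest decile of genes by level to -0.21 in the highest. In set 2 it went from -0.22 to -0.38. In decile 9 (32.5 to 65.4 FPKM), which holds Idi1, Fdft1 and Insig1, the medians were -0.26 and -0.39. There, 42.7% of genes lay above the median of set 1 and below that of set 2, and 17.4% were called lower on the deposited scale. Set against genes of their own decile, Idi1 was lower by 0.11 in set 1 and by 0.41 in set 2 on the log2 scale, and Insig1 by 0.32 and 0.20. Fdps and Fdft1 were above their deciles in set 1 (by 0.11 and 0.12) and below them in set 2 (log2 differences -0.28 and -0.32). Cyp51 was above its decile by 0.35 in set 1 and by 0.01 in set 2. Sqle differed from its decile by -0.11 and -0.13 and Lss by 0.04 and -0.01. The part of level in the difference between the sets was not tested.

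**Figure D3:**
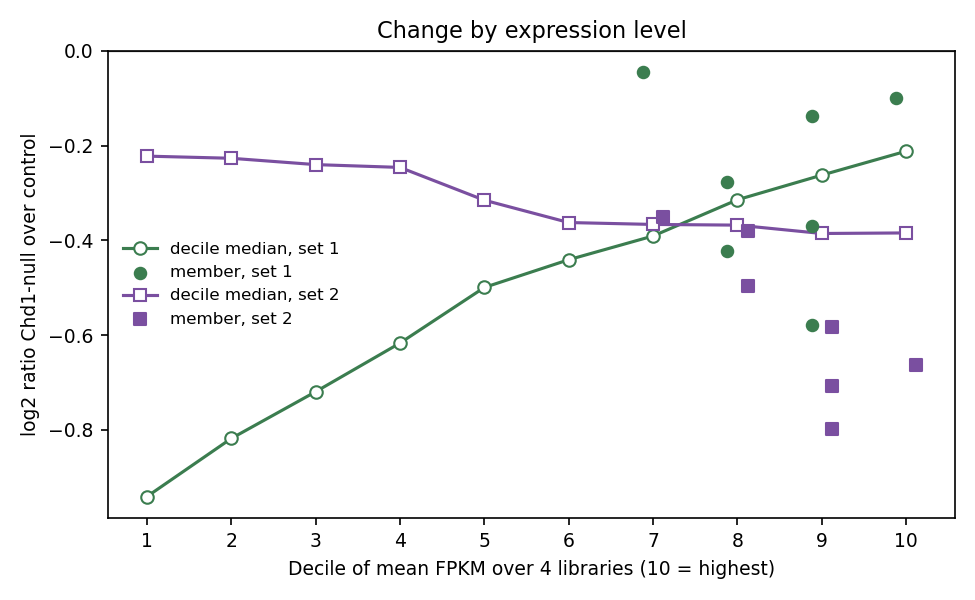
Median log2 ratio of Chd1-null over control by decile of mean FPKM (open symbols and lines) and the 7 genes (filled symbols), with set 1 as circles and set 2 as squares. The line of set 1 goes from -0.94 to -0.21 and that of set 2 from -0.22 to -0.38, and the 7 genes sit in deciles 7 to 10.

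Other enzymes of the route were measured as well. Of 13 tested, 11 were below control in each set, against 72.4% of all tested genes. On the deposited scale 3 fell (9.8% of all tested genes were called lower) and 0 rose. Relative to the median 0 passed, and 0 had an unadjusted p under 0.05 in limma (6.29% of all tested genes did). Among those that fell, Sc4mol, the sterol methyl oxidase now called Msmo1, fell by 0.75 (limma SE 0.18, adjusted p = 0.0020), with 54.9 and 40.7 FPKM in set 1 and 96.8 and 46.1 in set 2, control first. Dhcr7, a last-step reductase, fell by 0.96 (adjusted p = 0.0453), from 6.54 to 2.67 FPKM and from 8.93 to 5.60. Nsdhl, a sterol dehydrogenase of the demethylation complex, kept 90.5% and 98.3% of control (adjusted p = 0.860). The list's median log2 ratios were -0.34 in set 1 and -0.60 in set 2, against -0.31 and -0.37 in decile 8. Of these 13 enzymes, 7 lay above the median of set 1 and below that of set 2 (25.4% of all tested genes, and 36.7% in decile 8, which holds the list's median level of 23.1 FPKM), 3 below both, 2 above both and 1 the other way round.

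For genes that control SREBP the medians stood in the other order, -0.52 in set 1 and -0.30 in set 2, a difference that was not tested. All tested genes stood in that order too (-0.46 and -0.33). So did decile 6 (-0.44 and -0.36), which holds the list's median level of 12.1 FPKM. Of 10 regulators, 9 measured lower in each set, and 1 fell and 0 rose by the test; for this list and those below, 72.4% and 9.8% of all tested genes are again the background. Srebf2, the factor that acts mainly on cholesterol genes, measured 29.4 FPKM (control) against 14.1 (Chd1-null) in set 1. In set 2 it measured 18.5 against 21.0, so the sets went opposite ways (adjusted p = 0.161). Srebf1, which acts mainly on fatty acid genes, stood at 22.9 and 13.0 FPKM in set 1 and at 25.7 and 21.1 in set 2 (adjusted p = 0.0769). Scap, the sterol-sensing escort, kept 80.4% and 85.1% of control (adjusted p = 0.455). Insig2, the paralog of Insig1, fell by 0.92 (limma SE 0.33, adjusted p = 0.0490), with 8.46 and 3.73 FPKM in set 1 and 7.59 and 4.68 in set 2, control first.

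Of 10 genes of cholesterol uptake and transport, 9 were lower in both sets and 0 passed. In limma 4 had an unadjusted p under 0.05, against 29.2% of all tested genes. Lipa, the lysosomal lipase, stood at 1.70 and 1.19 FPKM in set 1 and at 3.66 and 2.10 in set 2 (adjusted p = 0.401). The list's medians were -0.70 in set 1 and -0.27 in set 2, against -0.62 and -0.25 in decile 4, which holds its median level. Of 6 genes of the LXR and export list, 1 fell and 0 rose. This was Apoe, an apolipoprotein, with 150 and 125 FPKM in set 1 and 176 and 86.8 in set 2, control first (log2 fold change -0.64, adjusted p = 0.0060). Soat1, which esterifies cholesterol, kept 95.2% and 100.02% of control, and Osbp, a sterol transfer protein, kept 43.4% and 67.0% (adjusted p = 0.920 and 0.1004).

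Of 15 fatty acid synthesis genes and SREBP1 targets, 14 measured lower in each set (72.4% of all tested genes did), and 3 fell (9.8% were called lower) and 0 rose by the test. The desaturase Scd2 fell by 0.95 (limma SE 0.18, adjusted p = 4.4e-05), with 59.0 and 26.1 FPKM in set 1 and 86.8 and 52.8 in set 2, control first. Its paralog Scd1 fell by 0.91 (adjusted p = 0.0373), and fatty acid synthase Fasn by 0.52 (adjusted p = 0.0471), with 62.8 and 34.0 FPKM in set 1 and 54.7 and 49.1 in set 2, control first. Acss2, acetyl-CoA synthetase, had the lowest relative change of its list but a low level, from 1.65 to 0.240 FPKM and from 2.22 to 1.23 (adjusted p = 0.130). Hsd17b12, a fatty acid elongation enzyme, kept 87.5% and 82.1% (adjusted p = 0.375). The list's medians were -0.61 in set 1 and -0.36 in set 2. In decile 7, which holds its median level of 17.9 FPKM, the medians were -0.39 and -0.37. Of 14 genes of the isoprenoid branch, 11 measured lower in each set, and 1 fell and 0 rose by the test. Their medians were -0.30 in set 1 and -0.33 in set 2, against -0.46 and -0.33 over all tested genes. In decile 6, which holds this list's median level of 12.1 FPKM, the medians were -0.44 and -0.36. Rabggtb, a subunit of the Rab prenyl transferase, fell by 0.81 (SE 0.18, adjusted p = 0.00050), from 97.6 to 56.0 FPKM and from 75.0 to 42.2. Dolk, dolichol kinase, had higher values in both sets, at 119% and 118% of control (adjusted p = 0.671). In these 6 lists together, 9 of 68 tested genes fell (13.2%) and 0 rose. Of all tested genes 9.8% were called lower, and 11.1% in decile 6, which holds the lists' median level of 12.1 FPKM. Relative to the median, 0 passed in limma and 1 had an unadjusted p under 0.05 (6.29% of all tested genes did). With a pseudocount of 1, Dhcr7, Fasn and Insig2 did not pass, and without a filter on low values Dhcr7, Insig2 and Scd1 did not. With the level trend removed 5 of the 9 passed, among them Apoe, Rabggtb, Sc4mol and Scd2, and with at least 5 FPKM only Rabggtb and Scd2 did. Insig2 also missed the threshold when loci of the same symbol were summed. None of the 9 passed without the block, with one common prior variance or scaled to library totals. The other lists' median levels differ from that of the 7 genes (35.3 FPKM), from 5.14 FPKM for uptake and transport to 23.1 for the other enzymes, and the part of level in these list medians was not tested.

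**Figure D4:**
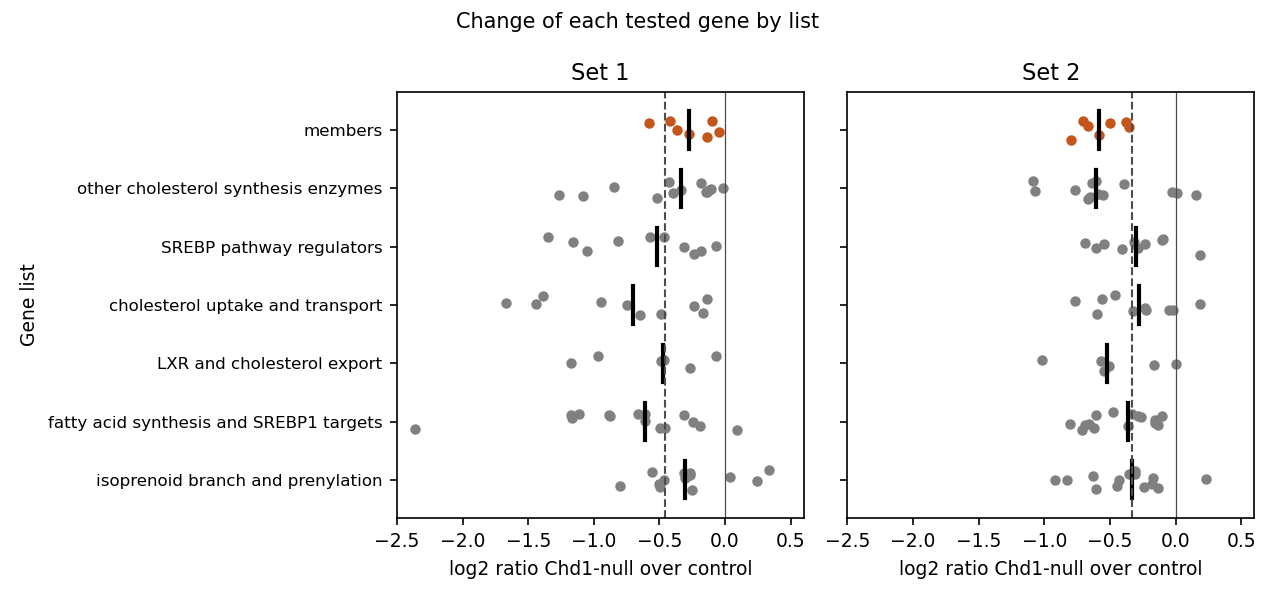
Log2 ratio of Chd1-null over control for each tested gene by list, set 1 on the left and set 2 on the right, with black bars at list medians and dashed lines at the medians of all tested genes. By median, the 7 genes (members) and other enzymes lie right of the dashed line in set 1 and left of it in set 2. So do the isoprenoid genes, by only -0.004 in set 2. The LXR and export genes lie left of it in both sets, by only -0.015 in set 1. The fatty acid genes do too, by only -0.03 in set 2. The regulators and the uptake genes lie left of it in set 1 alone.

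Courses like that of the 7 genes were common. Of 6644 other genes of at least 5 FPKM, 3560 lay within 0.5 of the mean course of the 7 (Euclidean distance of log2 levels over the 4 libraries, centred per gene). The 7 genes themselves lay 0.157 (Lss) to 0.384 (Sqle) from this mean. They make it up, so their closeness to it is partly built in. The nearest other genes were Tmem161b, Cactin, Bnip3l, Dpcd and Paox, at up to 0.0414, a closeness that choosing the nearest of so many fixes.

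Promoters are shown for Insig1, Cyp51 and Lss, to set the elements found there beside 3 genes that measured lower in both sets. The sequences are from RefSeq (GRCm38.p6), which held Hmgcs1, Idi1, Lss, Cyp51 and Insig1 (5 of 8). Capitals mark the SREBP element in short form TCACNNCA, the NF-Y box CCAAT and the E-box CACGTG, each searched on both strands. They run 5′ to 3′ towards the gene and leave out annotated exons. Insig1 is at chr5:28071162-28071362 on the plus strand, Cyp51 at chr5:4104747-4104947 on the minus strand and Lss at chr10:76531355-76531587 on the plus strand.
Insig1: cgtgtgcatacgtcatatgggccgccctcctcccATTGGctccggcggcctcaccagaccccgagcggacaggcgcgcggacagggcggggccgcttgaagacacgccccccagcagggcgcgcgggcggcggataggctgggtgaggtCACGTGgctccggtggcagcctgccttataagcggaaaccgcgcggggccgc
Cyp51: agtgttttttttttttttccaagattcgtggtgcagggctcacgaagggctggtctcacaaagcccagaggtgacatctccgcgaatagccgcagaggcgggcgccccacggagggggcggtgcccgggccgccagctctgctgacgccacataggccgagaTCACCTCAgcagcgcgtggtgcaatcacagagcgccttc
Lss: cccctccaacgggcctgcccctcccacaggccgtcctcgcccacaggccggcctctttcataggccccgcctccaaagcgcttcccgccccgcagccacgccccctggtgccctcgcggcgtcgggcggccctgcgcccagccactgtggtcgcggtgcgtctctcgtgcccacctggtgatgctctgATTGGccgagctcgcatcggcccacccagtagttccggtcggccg
Over the 250 bases before each gene's start, the full SREBP element TCACNCCAC, which always contains the short form, was in Hmgcs1 alone of the 5. It is in 1.05% of all 32851 promoters of that length. The short form was in Hmgcs1 and Cyp51 and in 11.4% of all. The NF-Y box was in all 5 and in 33.8% of all; that of Cyp51 starts 29 bases before the gene's start, past the end of the printed stretch. The Sp1 box GGGCGG was in all 5 and in 32.7%. This search did not leave out exons. All 250 bases searched for Idi1 lie in annotated exons, so its NF-Y and Sp1 matches do too. The E-box was in Insig1 alone of the 5 and in 6.02% of all. These matches are letters in a window and were not tied to the changes above.

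Some loci overlap other genes. In GENCODE M21 on GRCm38, Fdft1 overlaps Ctsb, Cyp51 overlaps Akap9 and Lss overlaps 4930483K19Rik, each on the opposite strand and each named once in both tables. Fdps overlaps the models Gm43738 and Gm22935 on its own strand, and Idi1 overlaps Gm48574 on the other; these are named in neither table. Libraries were strand-specific per the labels, but whether counting used strand is not given in the sources used here, so values of these loci are less certain than those of Sqle and Insig1, which overlap no annotated gene.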

How the data were processed

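Total RNA of 4 libraries was depleted of ribosomal RNA and sequenced as strand-specific paired reads of 100 bases, with ERCC spike-ins added, per the labels' protocols. The deposited tables, 1 per set, hold FPKM as the authors made it; the header does not write the unit, which was inferred from the values and from the submitters' processing notes (TopHat2 2.0.10, Cufflinks 2.2.0, Cuffdiff, mm9). How spike-ins entered the scaling is not given in the sources used here. A deposited ratio column was not used.

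Genes named once in both tables (11728) were joined by symbol, and 10261 of them, with a mean over the 4 libraries of 1 FPKM or more, were fitted as log2(FPKM + 0.1), a scale that understates changes of low genes, with limma 3.58.1 in R 4.3.3 (set as block, variance trend, two-sided, Benjamini-Hochberg at 0.05). For the relative comparison, the median log2 ratio of a set was subtracted from its Chd1-null library beforehand. Libraries were blocked by set, since the tables are separate; deviations of same-set libraries correlated across genes (r = 0.483). With 1 residual degree of freedom and prior degrees of freedom of Inf, SEs and p-values rest on the spread shared by genes of similar level. An exact sign-flip test of 2 pairs cannot give a p below 0.5. Alternatives were the block, pseudocount, filter, variance model, scaling, level trend, repeated symbols and leaving out a set.

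Genes and lists were chosen with earlier results of these data known. Besides the 7 genes, list genes were named if they passed a test, if they were the highest or lowest of their list by relative change with the same sign in both sets, or by a fixed choice (among them Srebf1, Srebf2, Scap and Insig2). Some genes that this rule takes are not reported here; counts and medians of lists include them.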

Additional observations from a re-analysis of the deposited data

Results flagged for a closer look

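The locus named Hmgcs1 entered no comparison, because it was named in set 1 alone. It stood at 0.560 FPKM in the control and 1.15 in the Chd1-null library, a ratio of 2.06, while the 7 tested genes were all lower in Chd1-null cells of that set. It is listed because a value outside the comparisons lay above its control. Whether this locus holds the gene's main transcript could not be worked out from the tables. With 1 pair of libraries and no read counts, the difference has no replicate check.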

How the results depend on the processing

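With 1 set there is no residual spread, so leaving out a set gave values and no test. The median log2 ratio of the 7 genes minus that of all genes was -0.03 as the mean of both sets, 0.184 without set 2 and -0.254 without set 1, so its sign depends on the set. Of the 7 genes, 2 were called on the deposited scale. This became 0 without the replicate block, with a mean of at least 5 FPKM, with one common prior variance, scaled to library totals and with the level trend removed. The log2 changes of Idi1 and Insig1 were -0.583 and -0.581 in the first 3 of these settings, -0.185 and -0.183 scaled to totals and -0.649 and -0.652 with the trend removed. The 9 other pathway genes became 0, 2, 0, 0 and 5 in the same order, the 1006 lower genes among all tested became 0, 225, 0, 37 and 493, and the 7 higher genes 0, 2, 0, 50 and 3 (4 with a pseudocount of 1). Relative to the median, 22 lower and 15 higher genes became 0 and 0 without the block, 3 and 2 with at least 5 FPKM and 0 and 0 with one common prior variance; with the level trend removed, 6 were higher. At an unadjusted p under 0.05, limma gave 1043 (deposited) and 154 (relative) genes without the block and 1718 and 614 with one common prior variance. None of the 7 genes passed relative to the median in limma under any of the 9 refitted alternatives. Signs turned for small values: scaled to library totals, Fdps (0.0177), Lss (0.0685) and Cyp51 (0.199) on the deposited scale; relative to the median, Fdps with a pseudocount of 1 (-0.0306), at least 5 FPKM (-0.0221) and the level trend removed (-0.0889), and Fdft1 without the block (0.00524). Apart from the construction of these settings, the cause was not tested.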

Other observations

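List genes outside the joint tests had these values. The merged locus of Tm7sf2, a sterol reductase, and Vps51 stood at 16.7 and 14.1 FPKM in set 1 and at 16.2 and 11.6 in set 2, control first. That of Acsl3, an acyl-CoA synthetase, and Utp14b stood at 28.1 and 17.5 FPKM and at 30.5 and 23.1. Cyp27a1, a sterol hydroxylase, was named in set 2 alone, at 0.899 and 0.186 FPKM.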
